A study of Arabidopsis thaliana with 18 samples.

Results

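The comparison described here is that of B2 roots given 150 mM NaCl with B2 roots given 0 mM NaCl, in Arabidopsis thaliana. Its members are the 3 count columns labelled B2 at 150 mM and the 3 labelled B2 at 0 mM, chosen by those labels, which makes 6 of the 17 libraries analysed. B2 is a transgenic line that carries the isoprene synthase coding sequence of Eucalyptus globulus with its native transit peptide, behind the rbcS-1A promoter of the gene RBCS1A and before an octopine synthase terminator, and it was picked with line C4 for high isoprene emission. Both groups are labelled as this transgenic line, and B2 is 1 transformed line. C4 roots had 3 libraries at each concentration. For roots labelled WT there were 2 at 150 mM, and 3 at 0 mM once the near-identical column was set aside. The growth protocol names an empty vector line, EV-B3, as the control, whereas the sample labels read WT. Seedlings were grown on plates of half-strength Murashige and Skoog medium with sucrose. The treatment protocol gives NaCl concentrations below 150 mM for root growth and isoprene emission tests, and does not name 150 mM. How, and for how long, the plants behind the 150 mM libraries were treated is not stated in those labels. The study asked how root transcripts of isoprene-emitting plants respond to salinity.

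Salt takes water from root cells and loads them with sodium. Abscisic acid (ABA), the hormone of water deficit, is sensed by PYR/PYL receptors, which hold back clade A protein phosphatases (PP2Cs). SnRK2 kinases are then free to act on ABF transcription factors, which bind ABA-responsive elements (ABREs) in promoters. DREB factors bind a second element, the DRE, and targets of both include dehydrins and other late embryogenesis abundant (LEA) proteins, hydrophilic proteins thought to protect membranes and enzymes in drying cells. Isoprene is a volatile made in plastids from a product of the methylerythritol phosphate (MEP) pathway.

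Values are CPM, read counts scaled to a library size that TMM adjusts, given for libraries 1, 2 and 3 in that order. Depth was 65942162 to 79589103 counts per B2 library, with 21291 to 21509 genes detected. Fold changes are 150 mM over 0 mM on the log2 scale, and adjusted p is that of edgeR's quasi-likelihood test with Benjamini-Hochberg adjustment over 21367 genes. Separate plants are not stated for the libraries of a group, so a p-value here reflects spread among the libraries alone, and that spread may be technical. As a root marker, PYK10, a beta-glucosidase of root ER bodies, had 10450.0, 10720.0 and 8557 CPM in the 150 mM libraries, against 13502, 10333 and 8349.7 CPM in the 0 mM libraries, where the groups overlapped. Of the 5 root-enriched genes checked, edgeR called 0 and DESeq2 called 1 as higher. Their log2 fold change was positive in 1 and negative in 4. The positive one was NRT2:1, with 14.6, 23.05 and 25.26 CPM in the 150 mM libraries, against 5.79, 3.03 and 1.51 CPM in the 0 mM libraries. The 8 shoot markers checked together held 177, 288 and 199 CPM in the 150 mM libraries, against 158, 138 and 128 CPM in the 0 mM libraries, with 0 of 8 called by edgeR (4 of them higher at an unadjusted p under 0.05, and 2 called as higher by DESeq2). RBCS1A, whose promoter drives the transgene, had 15.2, 16.3 and 12.1 CPM in the 150 mM libraries, against 18.3, 17.8 and 37.1 CPM in the 0 mM libraries (log2 fold change -0.74 ± 0.37 (SE), edgeR adjusted p = 0.174), so its level at 0 mM was highest in library 3. The transgene itself was not analysed here.

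Library 3 of the 0 mM group went against its label in 2 genes. ANNAT3, an annexin gene, had 1.11, 0.822 and 0.458 CPM in the 150 mM libraries, against 1.08, 1.36 and 96.8 CPM in the 0 mM libraries, whereas the 3 WT libraries at 0 mM held 89.4, 101.6 and 99.7 CPM. MRD1 had 43.1, 38.2 and 39.5 CPM in the 150 mM libraries, against 36.3, 37.8 and 0.0499 CPM in the 0 mM libraries, whereas WT at 0 mM held 2.06, 0.0965 and 0.418 CPM. In both genes the library labelled B2 0 mM, library 3, stood with WT and apart from the other 5 B2 libraries. Library 2 of WT at 150 mM also went against its label in MRD1, with 33.4 CPM. Its ANNAT3 level was 76.0 CPM, beside 177 CPM in library 1 of WT and 59.3, 161.8 and 99.9 CPM in C4 at 150 mM. Results are therefore given with and without 0 mM library 3 of B2. ANNAT3 and MRD1 are the genes by which this library was marked, so their dependence on it was known beforehand. ANNAT3 had a log2 fold change of -5.35 ± 1.41 (edgeR adjusted p = 0.0232) with all libraries. Without library 3 it was -0.60 (edgeR adjusted p = 0.517).

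Largest changes were ranked among genes at 5 CPM or more, with groups apart and called with and without 0 mM library 3. The largest rises of this ranking in B2 roots included genes of hydrophilic stress proteins, of galactinol synthesis and of ABA signalling. The upstream sequences of 4 genes that rose are shown because they hold different numbers of the motifs that the factors named above bind: ABRE and DRE core counts differed between LTI65 and LTI78, and were the same in LEA7 and PP2CA. Each is the 250 bases before the annotated gene start, read from the RefSeq copy of the TAIR10 genome, on the strand of the gene from 5′ to 3′. LTI65, also known as RD29B, and LTI78, also known as RD29A, are neighbours on chromosome 5 and encode hydrophilic stress proteins. LEA7 encodes a LEA protein and PP2CA a clade A phosphatase. Capitals mark the ABRE core ACGTG and the DRE core CCGAC, read on either strand, so that CACGT and GTCGG are marked too. The windows are chr5:21236771-21237020 (plus strand) for LTI65, chr5:21240467-21240716 (plus strand) for LTI78, chr1:19619474-19619723 (plus strand) for LEA7 and chr3:3585851-3586100 (minus strand) for PP2CA.
LTI65: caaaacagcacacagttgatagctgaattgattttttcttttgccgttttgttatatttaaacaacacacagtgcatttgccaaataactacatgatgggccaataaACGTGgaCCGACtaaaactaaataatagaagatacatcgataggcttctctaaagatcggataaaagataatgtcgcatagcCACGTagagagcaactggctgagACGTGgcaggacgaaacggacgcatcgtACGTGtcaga
LTI78: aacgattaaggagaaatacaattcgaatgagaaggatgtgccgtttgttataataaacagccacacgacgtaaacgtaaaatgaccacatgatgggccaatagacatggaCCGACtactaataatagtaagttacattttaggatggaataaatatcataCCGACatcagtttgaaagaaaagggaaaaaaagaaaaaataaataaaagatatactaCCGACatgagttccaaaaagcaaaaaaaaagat
LEA7: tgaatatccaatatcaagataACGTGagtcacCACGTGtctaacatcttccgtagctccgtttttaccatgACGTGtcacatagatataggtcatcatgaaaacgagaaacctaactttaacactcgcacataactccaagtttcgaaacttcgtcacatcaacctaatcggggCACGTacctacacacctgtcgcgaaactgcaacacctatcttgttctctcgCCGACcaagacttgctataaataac
PP2CA: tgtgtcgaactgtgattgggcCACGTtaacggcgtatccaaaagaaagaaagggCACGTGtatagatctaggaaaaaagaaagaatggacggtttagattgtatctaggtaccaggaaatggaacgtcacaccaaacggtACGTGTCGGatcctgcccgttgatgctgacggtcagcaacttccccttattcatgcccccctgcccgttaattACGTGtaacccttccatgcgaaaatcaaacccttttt
The LTI65 window held 4 ABRE cores and 1 DRE core, and the LTI78 window 0 ABRE cores and 3 DRE cores. LEA7 and PP2CA each had 5 ABRE cores and 1 DRE core, where the palindrome CACGTG counts at 2 positions, once per strand. Both neighbours rose, as given next. An ABRE core lay in this window in 40.6% of the 726 genes that rose at least 2-fold, in 30.9% of the 379 that fell at least 2-fold and in 24.1% of 21362 genes tested with a window. The DRE core lay in 126 of the 726 that rose, in 37 of the 379 that fell and in 2708 of the 21362 genes. Of the 12 genes with the largest rise, 8 held an ABRE core and 8 a DRE core. ABRE cores lay in 6 of 9 clade A phosphatase windows and 4 of 7 dehydrin windows, and DRE cores in 2 and 1. The windows of COR47, ERD10, ABI1, ABI2 and MYB121, which also rose, held 0 cores of either kind. A match describes the letters of a window and is not a binding site.

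LTI65 had 57.5, 181 and 100.3 CPM in the 150 mM libraries, against 1.08, 4.86 and 0.973 CPM in the 0 mM libraries (log2 fold change 5.61 ± 0.98 (SE), edgeR adjusted p = 0.00442). All 3 salt-treated libraries lay above all 3 untreated ones, as the ranking above required, and 0 mM library 2 was the highest of its group. The rise was 48.8-fold, with a log2 value of 6.78 without 0 mM library 2 and 5.24 without 0 mM library 3 (edgeR adjusted p = 0.0258). LTI78 had 879, 3177 and 2367 CPM in the 150 mM libraries, against 70.6, 96.6 and 52.3 CPM in the 0 mM libraries, a log2 fold change of 4.87 ± 0.62 (edgeR adjusted p = 0.00173). GolS2, which encodes galactinol synthase, the first enzyme on the way to raffinose, had 44.8, 122 and 51.1 CPM in the 150 mM libraries, against 1.298, 2.69 and 0.698 CPM in the 0 mM libraries. LEA7 had 124, 322 and 202 CPM in the 150 mM libraries, against 2.53, 7.96 and 3.97 CPM in the 0 mM libraries. In each of these genes 150 mM library 2 was the highest and library 1 the lowest. HAI3, a highly ABA-induced clade A phosphatase gene, had 12.4, 29.8 and 11.44 CPM in the 150 mM libraries, against 0.385, 0.623 and 0.574 CPM in the 0 mM libraries. TSPO, whose membrane protein is induced by ABA and binds porphyrins, had 35.4, 117 and 57.5 CPM in the 150 mM libraries, against 1.31, 3.32 and 1.097 CPM in the 0 mM libraries. MYB121, a transcription factor gene, had 6.37, 18.5 and 9.24 CPM in the 150 mM libraries, against 0.283, 0.342 and 0.150 CPM in the 0 mM libraries. These 7 genes kept their calls without each library in turn, where the call without 0 mM library 3 was required by the ranking. GolS2 and TSPO had log2 values of 6.18 and 5.86 without 0 mM library 2 and of 4.92 and 4.59 without 150 mM library 2. HAI3 had 4.48 without 150 mM library 2.

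The strength of the response differed between the salt-treated libraries. Of the 12 largest rises of the ranking above, 24.2 to 48.8-fold, library 2 was highest in 12 and library 1 lowest in 11. Of the 12 largest falls, library 2 was lowest in 10 and library 1 highest in 8. Over the 320 genes that rose at least 2-fold whichever library was left out, the median log2 ratio to the 0 mM mean was 1.15 in library 1, 2.09 in library 2 and 1.74 in library 3. Over the 116 genes that fell in the same way it was -0.964 in library 1, -1.62 in library 2 and -1.49 in library 3. These genes were chosen by this contrast, so the medians are a description.

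**Figure D1:**
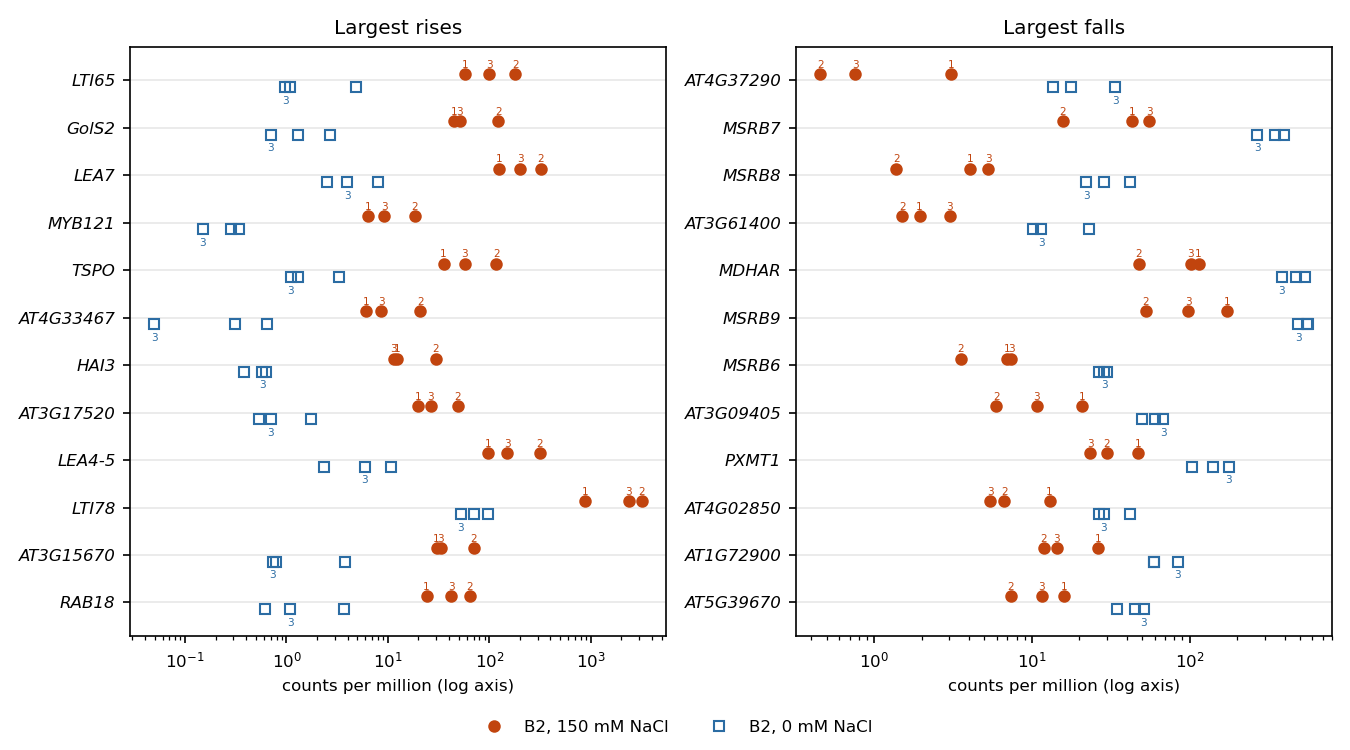
CPM on a log axis of the 12 genes with the largest rise (left) and the 12 with the largest fall (right) taken by the naming rule, all at a mean of 5 CPM or more and with groups apart; filled circles are B2 libraries at 150 mM and open squares B2 libraries at 0 mM, with the library number beside the points (0 mM: library 3 only). In each of the 12 rises library 2 is the highest of the 150 mM libraries.

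The largest falls of the same ranking included genes that repair oxidised methionine and regenerate ascorbate. MSRB7, a methionine sulfoxide reductase gene, had 43.5, 15.8 and 55.6 CPM in the 150 mM libraries, against 350.1, 398 and 268 CPM in the 0 mM libraries (log2 fold change -3.15 ± 0.61 (SE), edgeR adjusted p = 0.00651). MDHAR, a monodehydroascorbate reductase gene of the ascorbate cycle, had 114, 47.6 and 102 CPM in the 150 mM libraries, against 540.1, 474 and 385 CPM in the 0 mM libraries (log2 fold change -2.41 ± 0.42 (SE), edgeR adjusted p = 0.00391). The groups did not overlap in either gene, as the ranking required, and 150 mM library 2 was the lowest in both. AT4G37290, which has no gene name in the annotation used, had 3.08, 0.457 and 0.757 CPM in the 150 mM libraries, against 17.64, 13.6 and 33.8 CPM in the 0 mM libraries. Its log2 fold change was -3.90 ± 0.87, -3.44 without 0 mM library 3 and -5.16 without 150 mM library 1, and it was not called without 150 mM library 2 or 3. AT3G61400, a gene for an oxygenase of the 2-oxoglutarate and iron type, had 1.94, 1.51 and 3.01 CPM in the 150 mM libraries, against 23.1, 10.2 and 11.44 CPM in the 0 mM libraries, and was not called without 150 mM library 2. AT5G39670, a calcium-binding EF-hand gene, fell to 16.01, 7.35 and 11.5 CPM at 150 mM, against 45.1, 34.6 and 51.1 CPM at 0 mM (log2 fold change -1.90 ± 0.30).

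Across the table, 2054 genes rose (9.61% of those tested) and 1417 fell (6.63%). Of these, 726 rose and 379 fell by at least 2-fold, and 84 rose and 20 fell by at least 8-fold. The median log2 fold change was 0.764 among the genes that rose, -0.752 among those that fell and -0.00955 over all genes. In 3329 of the 3471 called genes the 2 groups did not overlap, whereas groups did not overlap in 34.5% of all genes tested. Groups that lie apart in a called gene named here therefore add little to its call. In whole roots, fewer cells of a type and less RNA per cell cannot be told apart. Without 0 mM library 3, 713 genes rose (3.34%) and 586 fell (2.75%). Of these, 701 and 569 were called in the same direction with all libraries, and 0 of the 3471 genes changed sign. The log2 fold change moved by over 0.5 in 43 of them and by over 1 in 8. The total of 3471 was 1843, 2726 and 1299 without 0 mM libraries 1, 2 and 3, and 5728, 703 and 1174 without 150 mM libraries 1, 2 and 3. Without 0 mM libraries 1 and 2, 1048 and 1575 genes rose, and 795 and 1151 fell. Without 150 mM libraries 1, 2 and 3, the counts were 2897, 445 and 737 that rose, and 2831, 258 and 437 that fell. Genes called with all libraries and without each in turn numbered 420 that rose (1.97%) and 238 that fell (1.11%). List counts without a library stand against the totals of that fit. With all libraries, counts over the gene lists below stand against the shares of all genes, 9.61% that rose and 6.63% that fell. A gene named below with its values is one of these 658 unless a library is named beside it or it is said not to have passed.

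**Figure D2:**
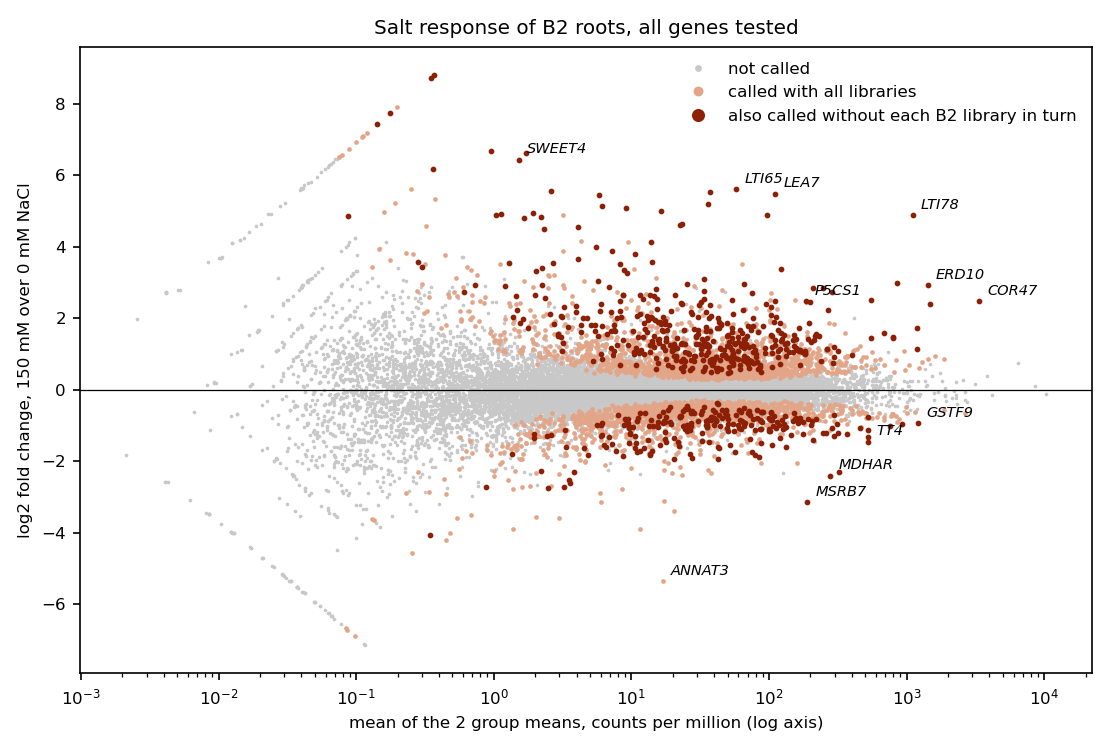
Log2 fold change of 150 mM over 0 mM in B2 roots against the mean CPM of both groups (log axis), with 1 point per gene tested; grey points were not called, light points were called with all libraries, and dark points were also called without each B2 library in turn. COR47 is the dark point farthest to the right, at 2.48. ANNAT3, a gene by which 0 mM library 3 was marked, stands apart below at -5.35 and is not called without that library.

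**Figure D3:**
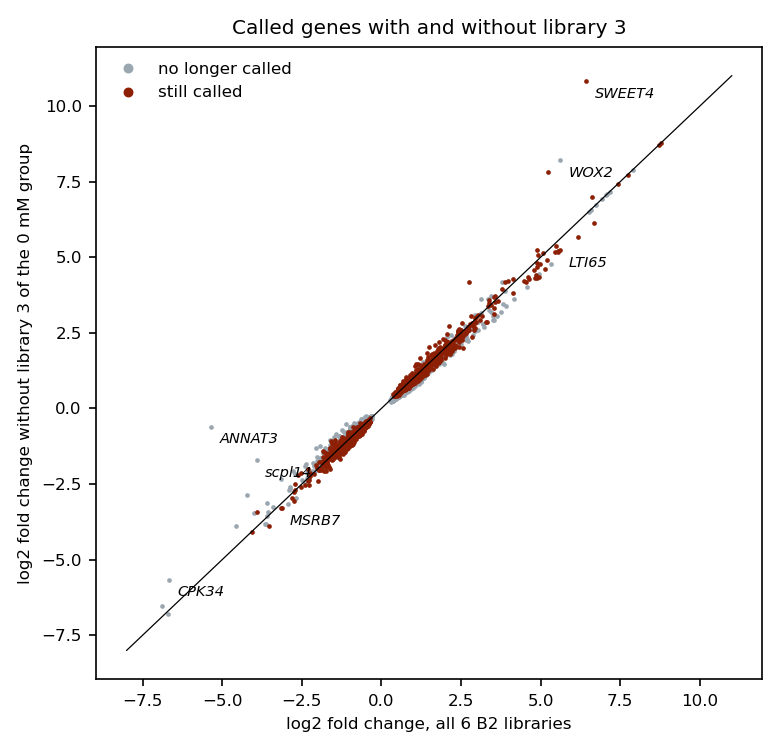
Log2 fold change of the 3471 called genes with all 6 B2 libraries (x axis) and without 0 mM library 3 (y axis); dark points are still called, grey points are not, and the line marks equal values. ANNAT3, a gene by which that library was marked, lies far from the line, at -5.35 with and -0.60 without it. In all, 0 genes change sign.

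Of the ABA receptor genes, 1 of 10 rose and 2 fell, and their median log2 fold change was -0.475. PYL1 fell to 23.0, 20.6 and 22.8 CPM at 150 mM, against 33.4, 29.6 and 37.1 CPM at 0 mM (log2 fold change -0.59 ± 0.12, edgeR adjusted p = 0.00655). PYL7 had 10.9, 20.4 and 14.2 CPM in the 150 mM libraries, against 5.32, 6.39 and 3.57 CPM in the 0 mM libraries, a rise called with all libraries but not without 0 mM library 3 (log2 1.37) or 150 mM library 2. PYL4 had 60.5, 32.0 and 47.5 CPM in the 150 mM libraries, against 144, 95.7 and 84.9 CPM in the 0 mM libraries, and its call was lost without 0 mM library 1 or 3 or without 150 mM library 2 or 3. Members of the receptor family thus differed in sign. The count that rose was 0 without 0 mM library 3 or 150 mM library 2 and 2 without 150 mM library 1, and the count that fell was 1 without 0 mM library 3, 0 mM library 1, 150 mM library 2 or 150 mM library 3.

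Most of the phosphatases that the receptors hold back rose. Of the 9 clade A PP2C genes, 8 rose and 0 fell, with a median log2 fold change of 1.54. The count was 6 without 0 mM library 3 and 5 without 150 mM library 2. ABI1 had 209.5, 429.5 and 323 CPM in the 150 mM libraries, against 98.2, 125 and 117 CPM in the 0 mM libraries (log2 fold change 1.498 ± 0.28 (SE), edgeR adjusted p = 0.00472). ABI2 had 44.5, 101 and 57.9 CPM in the 150 mM libraries, against 13.3, 21.1 and 16.9 CPM in the 0 mM libraries (log2 fold change 1.99 ± 0.34). HAB1 had 152, 299 and 225 CPM in the 150 mM libraries, against 67.5, 91.6 and 76.9 CPM in the 0 mM libraries (log2 fold change 1.52 ± 0.25), and PP2CA had 125, 276 and 169 CPM in the 150 mM libraries, against 56.0, 77.6 and 62.9 CPM in the 0 mM libraries (log2 fold change 1.54 ± 0.30). In these genes each salt-treated library lay above each untreated one. HAI2, another highly ABA-induced member, had 10.8, 28.7 and 14.2 CPM in the 150 mM libraries, against 0.668, 1.87 and 0.511 CPM in the 0 mM libraries and was not called without 150 mM library 2. Its log2 fold change was 4.13 ± 0.87, and 4.91 without 0 mM library 2. AHG1, which acts mainly in seeds, was the member that did not pass, with 0.626, 1.13 and 1.17 CPM in the 150 mM libraries, against 0.154, 0.635 and 0.349 CPM in the 0 mM libraries.

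Most of the kinases and factors downstream rose as well. Of the 14 SnRK2 and ABF genes, 12 rose and 0 fell, with a median of 0.885. The count was 9 without 0 mM library 3 and 7 without 150 mM library 2. OST1, the kinase SnRK2.6, had 33.2, 55.0 and 43.1 CPM in the 150 mM libraries, against 17.61, 18.8 and 17.3 CPM in the 0 mM libraries (log2 fold change 1.29 ± 0.21 (SE), edgeR adjusted p = 0.00243). SNRK2.7 had 30.5, 84.4 and 69.9 CPM in the 150 mM libraries, against 13.4, 15.4 and 15.6 CPM in the 0 mM libraries (log2 fold change 2.06 ± 0.35). SNRK2.5 had 19.9, 17.61 and 21.03 CPM in the 150 mM libraries, against 13.2, 12.1 and 9.53 CPM in the 0 mM libraries, the smallest rise of those named here. The factor gene ABF1 had 31.7, 76.7 and 67.9 CPM in the 150 mM libraries, against 14.9, 15.9 and 12.8 CPM in the 0 mM libraries and ABF3 had 194, 303 and 235 CPM in the 150 mM libraries, against 99.1, 146 and 116 CPM in the 0 mM libraries. ABI5, a related factor best known from seeds, had 4.11, 6.10 and 5.99 CPM in the 150 mM libraries, against 1.01, 1.22 and 1.05 CPM in the 0 mM libraries (log2 fold change 2.2998 ± 0.34), with a low level in both groups.

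Genes of ABA synthesis and breakdown rose in part, 5 of 14 measured members with a median of 1.13, and 0 fell. The count was 4 without 0 mM library 3 and 2 without 150 mM library 2. ABA1, the zeaxanthin epoxidase, had 89.5, 155 and 125 CPM in the 150 mM libraries, against 36.5, 32.2 and 23.1 CPM in the 0 mM libraries (log2 fold change 2.01 ± 0.31 (SE), edgeR adjusted p = 0.00247). AAO3, whose product makes ABA from its aldehyde, had 46.4, 68.1 and 68.3 CPM in the 150 mM libraries, against 31.5, 26.2 and 23.3 CPM in the 0 mM libraries (log2 fold change 1.17 ± 0.18). NCED3, the dioxygenase whose cleavage step limits ABA output, had 50.0, 106 and 59.6 CPM in the 150 mM libraries, against 10.2, 18.3 and 14.4 CPM in the 0 mM libraries and was not called without 150 mM library 2. CYP707A1, which breaks ABA down, had 92.8, 199 and 155 CPM in the 150 mM libraries, against 54.1, 58.1 and 58.7 CPM in the 0 mM libraries, and its call too was lost without 150 mM library 2. With all libraries, ABA1, AAO3 and NCED3 of synthesis and CYP707A1 of breakdown were thus higher with salt. Upstream of these, 3 of 15 carotenoid genes rose, and the count was 2 without 0 mM library 3, 6 without 150 mM library 1 and 1 without 150 mM library 2. ZDS, a carotene desaturase, had 44.4, 80.2 and 65.8 CPM in the 150 mM libraries, against 32.2, 33.0 and 32.1 CPM in the 0 mM libraries.

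All 7 dehydrin genes rose, with a median log2 fold change of 2.48. The count was 6 without 0 mM library 3 and 5 without 0 mM library 1, 150 mM library 2 or 150 mM library 3. COR47 had 2876, 7986 and 6294 CPM in the 150 mM libraries, against 834, 1059 and 1177 CPM in the 0 mM libraries (log2 fold change 2.48 ± 0.35 (SE), edgeR adjusted p = 0.00176). ERD10 had 1291, 3606 and 2638 CPM in the 150 mM libraries, against 317, 369 and 303 CPM in the 0 mM libraries (log2 fold change 2.93 ± 0.35), and ERD14 had 1069, 2329 and 2109.9 CPM in the 150 mM libraries, against 501, 655 and 499 CPM in the 0 mM libraries (log2 fold change 1.73 ± 0.26). LTI30 had 812, 2081 and 1658 CPM in the 150 mM libraries, against 178, 198 and 204 CPM in the 0 mM libraries (log2 fold change 2.97 ± 0.40). Salt-treated library 1 was the lowest of its group in each of these 4 genes and still above every untreated library. RAB18 (AT5G66400), a dehydrin long used as an ABA marker, had 24.1, 64.0 and 42.3 CPM in the 150 mM libraries, against 0.617, 3.66 and 1.08 CPM in the 0 mM libraries (log2 fold change 4.60 ± 0.71 (SE), edgeR adjusted p = 0.00274). Its log2 fold change was 5.67 without 0 mM library 2. Per length, COR47 averaged 4297 TPM at 150 mM and 792 TPM at 0 mM, ERD10 averaged 2695 TPM at 150 mM and 365 TPM at 0 mM, and RAB18 averaged 69.5 TPM at 150 mM and 2.99 TPM at 0 mM. Together the 7 genes held 7399, 17764 and 14184 CPM in the 150 mM libraries, against 2752, 3317 and 3180 CPM in the 0 mM libraries. That was 1.31% of all counts at 150 mM and 0.308% at 0 mM.

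Of the 13 other LEA genes, 7 rose and 0 fell, with a median of 3.31, and 7 rose without 0 mM library 3. LEA14 had 238, 569 and 520.0 CPM in the 150 mM libraries, against 95.2, 99.4 and 89.6 CPM in the 0 mM libraries (log2 fold change 2.22 ± 0.33 (SE), edgeR adjusted p = 0.00213). LEA4-5 had 96.5, 313 and 149 CPM in the 150 mM libraries, against 2.35, 10.8 and 5.89 CPM in the 0 mM libraries (log2 fold change 4.88 ± 0.87, with 5.49 without 0 mM library 2 and 4.27 without 150 mM library 2). AT3G17520, a LEA family gene, had 19.9, 48.9 and 26.5 CPM in the 150 mM libraries, against 0.540, 1.75 and 0.698 CPM in the 0 mM libraries, and its log2 fold change of 4.99 ± 0.65 was 5.67 without 0 mM library 2. COR15A, whose product protects chloroplast membranes in the cold, had 2.78, 14.7 and 6.15 CPM in the 150 mM libraries, against 0.334, 0.525 and 0.150 CPM in the 0 mM libraries. Despite low levels its groups did not overlap, and its log2 fold change ran between 3.71 without 150 mM library 2 and 5.02 without 0 mM library 2. COR413-PM1, a cold-regulated membrane protein gene outside that list, had 1342, 3530.3 and 2538 CPM in the 150 mM libraries, against 403, 513 and 500.0 CPM in the 0 mM libraries (log2 fold change 2.39 ± 0.33).

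Of 12 galactinol, raffinose and myo-inositol genes, 2 rose and 1 fell. The count that rose was 1 without 0 mM library 3, 0 mM library 1, 0 mM library 2, 150 mM library 2 or 150 mM library 3 and 5 without 150 mM library 1. GolS2 was the strongest of them, as given above, and MIPS3, which makes myo-inositol phosphate, fell to 44.0, 27.3 and 23.57 CPM at 150 mM, against 78.0, 54.8 and 68.0 CPM at 0 mM (log2 fold change -1.08 ± 0.19). Of 8 proline genes, 3 rose and 0 fell, and the count that rose was 1 without 0 mM library 3 or 150 mM library 2. P5CS1, the rate-limiting enzyme of proline synthesis, had 203, 435 and 305 CPM in the 150 mM libraries, against 58.8, 58.9 and 52.4 CPM in the 0 mM libraries (log2 fold change 2.47 ± 0.35 (SE), edgeR adjusted p = 0.00181). P5CS2, its housekeeping relative, had 172, 229 and 221 CPM in the 150 mM libraries, against 146, 126 and 125 CPM in the 0 mM libraries, with calls lost without 0 mM library 3 (log2 0.60) and without 150 mM library 2 or 3.

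Genes that split and move sugars rose, 9 of 20 with a median of 0.975, and 1 fell. Both counts were equal without 0 mM library 3, and 7 rose and 0 fell without 150 mM library 2. SUS1, a sucrose synthase, had 195, 487 and 425 CPM in the 150 mM libraries, against 56.4, 51.1 and 48.1 CPM in the 0 mM libraries (log2 fold change 2.83 ± 0.38 (SE), edgeR adjusted p = 0.00176). SUS3, another isoform, had 75.9, 121 and 90.7 CPM in the 150 mM libraries, against 41.7, 38.8 and 26.9 CPM in the 0 mM libraries (log2 fold change 1.42 ± 0.24). The phloem sucrose carrier gene SUC2 had 55.2, 97.3 and 83.8 CPM in the 150 mM libraries, against 25.9, 28.4 and 33.0 CPM in the 0 mM libraries and SWEET2, a vacuolar sugar transporter gene of roots, had 67.0, 261 and 177 CPM in the 150 mM libraries, against 31.9, 42.0 and 43.9 CPM in the 0 mM libraries. In all 4 genes the groups were apart. SWEET4, a hexose carrier of root vasculature, had 3.12, 3.55 and 2.38 CPM in the 150 mM libraries, against 0, 0 and 0.0998 CPM in the 0 mM libraries. It was detected in all 3 salt-treated libraries and in 0 mM library 3 alone among the untreated ones, so no fold is given. STP1, a hexose carrier, had 97.0, 186 and 279 CPM in the 150 mM libraries, against 51.8, 50.8 and 53.1 CPM in the 0 mM libraries. ADH1, alcohol dehydrogenase of fermentation, was 1 of 4 of 15 hypoxia genes that rose, with 81.6, 171 and 138 CPM in the 150 mM libraries, against 19.9, 22.5 and 17.36 CPM in the 0 mM libraries (log2 fold change 2.71 ± 0.37). The hypoxia count was 4 without 0 mM library 3. Of 16 trehalose phosphate genes, 5 rose and 5 fell. The count that rose was 1 without 0 mM library 3 or 150 mM library 2, 3 without 150 mM library 3 and 2 without 0 mM library 1, and the count that fell was 3 without 0 mM library 3 or 150 mM library 3, 2 without 0 mM library 1 and 0 without 150 mM library 2. TPS10, of the class of synthases with regulatory roles, had 242, 365 and 318 CPM in the 150 mM libraries, against 131, 135 and 90.2 CPM in the 0 mM libraries.

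Several transcription factor lists held genes that rose, against 9.61% that rose and 6.63% that fell over all genes. Of 19 CBF, DREB and zinc finger repressor genes, 7 rose, with a median of 0.914, and the count was 3 without 0 mM library 3, 4 without 0 mM library 1 or 150 mM library 3 and 2 without 150 mM library 2. DREB2A, a DRE-binding factor of drought and heat, had 46.5, 107 and 57.5 CPM in the 150 mM libraries, against 18.18, 22.7 and 18.5 CPM in the 0 mM libraries (log2 fold change 1.83 ± 0.31 (SE), edgeR adjusted p = 0.00359), and DREB2B had 2.52, 6.85 and 5.76 CPM in the 150 mM libraries, against 1.22, 1.03 and 1.42 CPM in the 0 mM libraries. Of 12 stress NAC genes, 7 rose, with a median of 0.987, and the count was 3 without 0 mM library 3 or 150 mM library 2 and 4 without 150 mM library 3. RD26, an ABA-responsive NAC factor, had 107, 295 and 163 CPM in the 150 mM libraries, against 23.64, 51.0 and 26.3 CPM in the 0 mM libraries (log2 fold change 2.48 ± 0.50). NAC047 had 67.9, 146 and 115 CPM in the 150 mM libraries, against 35.2, 41.2 and 19.5 CPM in the 0 mM libraries. Of 14 class I HD-ZIP genes, 4 rose and 1 fell, and the count that rose was 2 without 0 mM library 3 and 1 without 0 mM library 1, 150 mM library 2 or 150 mM library 3. The count that fell was 0 without 0 mM library 3, 150 mM library 2 or 150 mM library 3 and 2 without 150 mM library 1. HB-7, a water-deficit factor, had 218, 487 and 308 CPM in the 150 mM libraries, against 60.6, 85.1 and 39.6 CPM in the 0 mM libraries (log2 fold change 2.45 ± 0.37 (SE), edgeR adjusted p = 0.00218). Its relative HB-12 had 67.5, 162 and 105 CPM in the 150 mM libraries, against 17.96, 41.6 and 10.6 CPM in the 0 mM libraries and lost its call without 0 mM library 1 or 3 or 150 mM library 2 or 3, with log2 fold changes of 1.90 without 0 mM library 3 and 2.96 without 0 mM library 2. HSFA6B, a heat shock factor gene, had 12.4, 48.6 and 17.9 CPM in the 150 mM libraries, against 0.758, 1.94 and 1.796 CPM in the 0 mM libraries. Its log2 fold change was 4.13 ± 0.76, and 3.32 without 150 mM library 2. Of 15 heat shock genes 2 rose and 1 fell, with 2 that rose without 0 mM library 3, and the count that fell was 0 without 0 mM library 3, 0 mM library 2, 150 mM library 2 or 150 mM library 3 and 5 without 150 mM library 1. Of 62 WRKY genes, 13 rose and 1 fell, and the count that rose was 5 without 0 mM library 3, 6 without 0 mM library 1, 4 without 150 mM library 3 and 2 without 150 mM library 2. WRKY33, a defence regulator, was the one that fell, with 123, 99.4 and 94.8 CPM in the 150 mM libraries, against 171, 199 and 217 CPM in the 0 mM libraries (log2 fold change -0.89 ± 0.17).

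Genes that repair methionine and those that conjugate glutathione held more falls than rises. Of 21 glutathione peroxidase, redoxin and methionine sulfoxide reductase genes, 7 fell and 3 rose, against 6.63% and 9.61% of all genes, and 6 fell and 0 rose without 0 mM library 3. The count that fell was 4 without 150 mM library 2, and the count that rose was 0 without 0 mM library 3, 150 mM library 2 or 150 mM library 3 and 1 without 0 mM library 1. MSRB7, MSRB8 and MSRB9 lie side by side on the minus strand of chromosome 4, and reads mapped to more than 1 place were not counted per the file header, so values of these neighbouring paralogs are uncertain. MSRB9 had 172, 52.7 and 98.4 CPM in the 150 mM libraries, against 556, 561 and 487 CPM in the 0 mM libraries (log2 fold change -2.31 ± 0.41 (SE), edgeR adjusted p = 0.00409). MSRB5 had 147, 81.7 and 87.8 CPM in the 150 mM libraries, against 246, 238 and 258 CPM in the 0 mM libraries (log2 fold change -1.23 ± 0.22). PMSR2, which repairs the other stereoisomer of methionine sulfoxide, had 54.5, 22.9 and 30.6 CPM in the 150 mM libraries, against 155, 139 and 109 CPM in the 0 mM libraries (log2 fold change -1.90 ± 0.29). MSRB8 had 4.06, 1.38 and 5.28 CPM in the 150 mM libraries, against 41.6, 28.7 and 22.2 CPM in the 0 mM libraries and MSRB6 had 6.97, 3.55 and 7.38 CPM in the 150 mM libraries, against 26.5, 29.8 and 28.7 CPM in the 0 mM libraries; both lost their call without 150 mM library 2. In each of these genes all salt-treated libraries lay below all untreated ones, as the ranking required of MSRB6, MSRB8 and MSRB9.

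Of 28 catalase, dismutase and ascorbate cycle genes, 3 rose and 6 fell, with a median of -0.00423. The count that fell was 3 without 0 mM library 3, 2 without 150 mM library 3 and 1 without 150 mM library 2, and the count that rose was 2 without 0 mM library 3, 7 without 150 mM library 1 and 1 without 150 mM library 2 or 150 mM library 3. Isoforms of 1 enzyme went opposite ways, with MDHAR lower, as given above, and MDAR4, the peroxisomal monodehydroascorbate reductase, at 161, 277 and 211 CPM in the 150 mM libraries, against 102, 104.02 and 84.0 CPM in the 0 mM libraries (log2 fold change 1.16 ± 0.19). CAT1, a catalase gene, had 54.7, 86.6 and 106 CPM in the 150 mM libraries, against 24.4, 29.7 and 27.3 CPM in the 0 mM libraries and lost its call without 150 mM library 2 or 3. GSH1, the first enzyme of glutathione synthesis, had 723, 493 and 655 CPM in the 150 mM libraries, against 1378, 1178 and 1089 CPM in the 0 mM libraries (log2 fold change -0.96 ± 0.19 (SE), edgeR adjusted p = 0.00575). Of 38 glutathione S-transferase genes, 8 fell and 2 rose, with a median of -0.458, and the count that fell was 6 without 0 mM library 3, 14 without 150 mM library 1 and 3 without 150 mM library 2 or 150 mM library 3. The count that rose was 1 without 0 mM library 3, 0 mM library 1, 150 mM library 2 or 150 mM library 3. GSTF9 had 992, 734 and 769.8 CPM in the 150 mM libraries, against 1762, 1496 and 1507 CPM in the 0 mM libraries and GSTF10 had 612, 434 and 469.7 CPM in the 150 mM libraries, against 1063, 1002 and 1004 CPM in the 0 mM libraries, with log2 fold changes of -0.93 ± 0.17 and -1.02 ± 0.17. Against that direction, GSTU9 had 70.9, 141 and 95.7 CPM in the 150 mM libraries, against 35.7, 42.3 and 30.6 CPM in the 0 mM libraries.

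Indole glucosinolate synthesis, which makes sulfur-containing defence compounds from tryptophan, fell in most members. Of 18 genes, 13 fell and 0 rose, with a median of -0.793 and negative log2 fold changes in all 18. The count was 11 without 0 mM library 3, 7 without 0 mM library 1 and 4 without 150 mM library 2. GSTF9 and GSTF10 belong to this list as well. UGT74B1, a glucosyltransferase of the core pathway, had 153, 90.5 and 122 CPM in the 150 mM libraries, against 263, 217 and 212 CPM in the 0 mM libraries (log2 fold change -0.92 ± 0.16 (SE), edgeR adjusted p = 0.00324). SUR1, the C-S lyase of that pathway, had 196, 129 and 154 CPM in the 150 mM libraries, against 324, 245 and 275 CPM in the 0 mM libraries (log2 fold change -0.82 ± 0.14). MYB51, a regulator of the pathway, had 25.5, 22.8 and 17.3 CPM in the 150 mM libraries, against 29.97, 56.1 and 65.7 CPM in the 0 mM libraries, with its call lost without 150 mM library 2 or 3. Neither 0 mM library 1 nor any salt-treated library reached the level of 0 mM libraries 2 and 3.

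Of 11 flavonoid synthesis genes, 4 fell and 0 rose, and the count was 3 without 0 mM library 3 and 1 without 150 mM library 2. TT4, chalcone synthase, had 409, 232 and 204 CPM in the 150 mM libraries, against 634, 507 and 1178 CPM in the 0 mM libraries (log2 fold change -1.46 ± 0.29 (SE), edgeR adjusted p = 0.00626). Its untreated level was highest in library 3, and the log2 fold change was -1.03 without that library (edgeR adjusted p = 0.0285). TT5, chalcone isomerase, and FLS1, flavonol synthase, had the same order at 0 mM, with 82.5, 58.8 and 137 CPM for TT5 and 97.9, 66.7 and 200.03 CPM for FLS1. FLS1 was not called without 0 mM library 3 (log2 -0.94, edgeR adjusted p = 0.0536) or without 150 mM library 2 or 3, and TT5 was not called without 150 mM library 2. Of 11 genes written for danger peptides and their receptors, only 8 were matched by name and tested. Of these 8, 5 fell and 0 rose, with a median of -0.903. The count was 2 without 0 mM library 3 or 150 mM library 3, 3 without 0 mM library 2 and 0 without 150 mM library 2. PEPR2, a receptor of these peptides, had 16.4, 9.36 and 13.9 CPM in the 150 mM libraries, against 30.3, 23.0 and 28.5 CPM in the 0 mM libraries and lost its call without 150 mM library 2. Of 23 jasmonate genes, 3 fell and 0 rose, with a median of -0.666, and the count was 3 without 0 mM library 3. AOC3, an allene oxide cyclase of jasmonate synthesis, had 43.4, 25.03 and 34.9 CPM in the 150 mM libraries, against 74.9, 57.7 and 67.8 CPM in the 0 mM libraries. FRK1, an immune receptor kinase gene, rose with 19.98, 28.3 and 25.4 CPM in the 150 mM libraries, against 5.37, 7.59 and 6.76 CPM in the 0 mM libraries (log2 fold change 1.90 ± 0.28), whereas 6 of the 18 genes of its salicylate and immune list fell (4 without 0 mM library 3, 3 without 150 mM library 3 and 2 without 150 mM library 2).

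**Figure D4:**
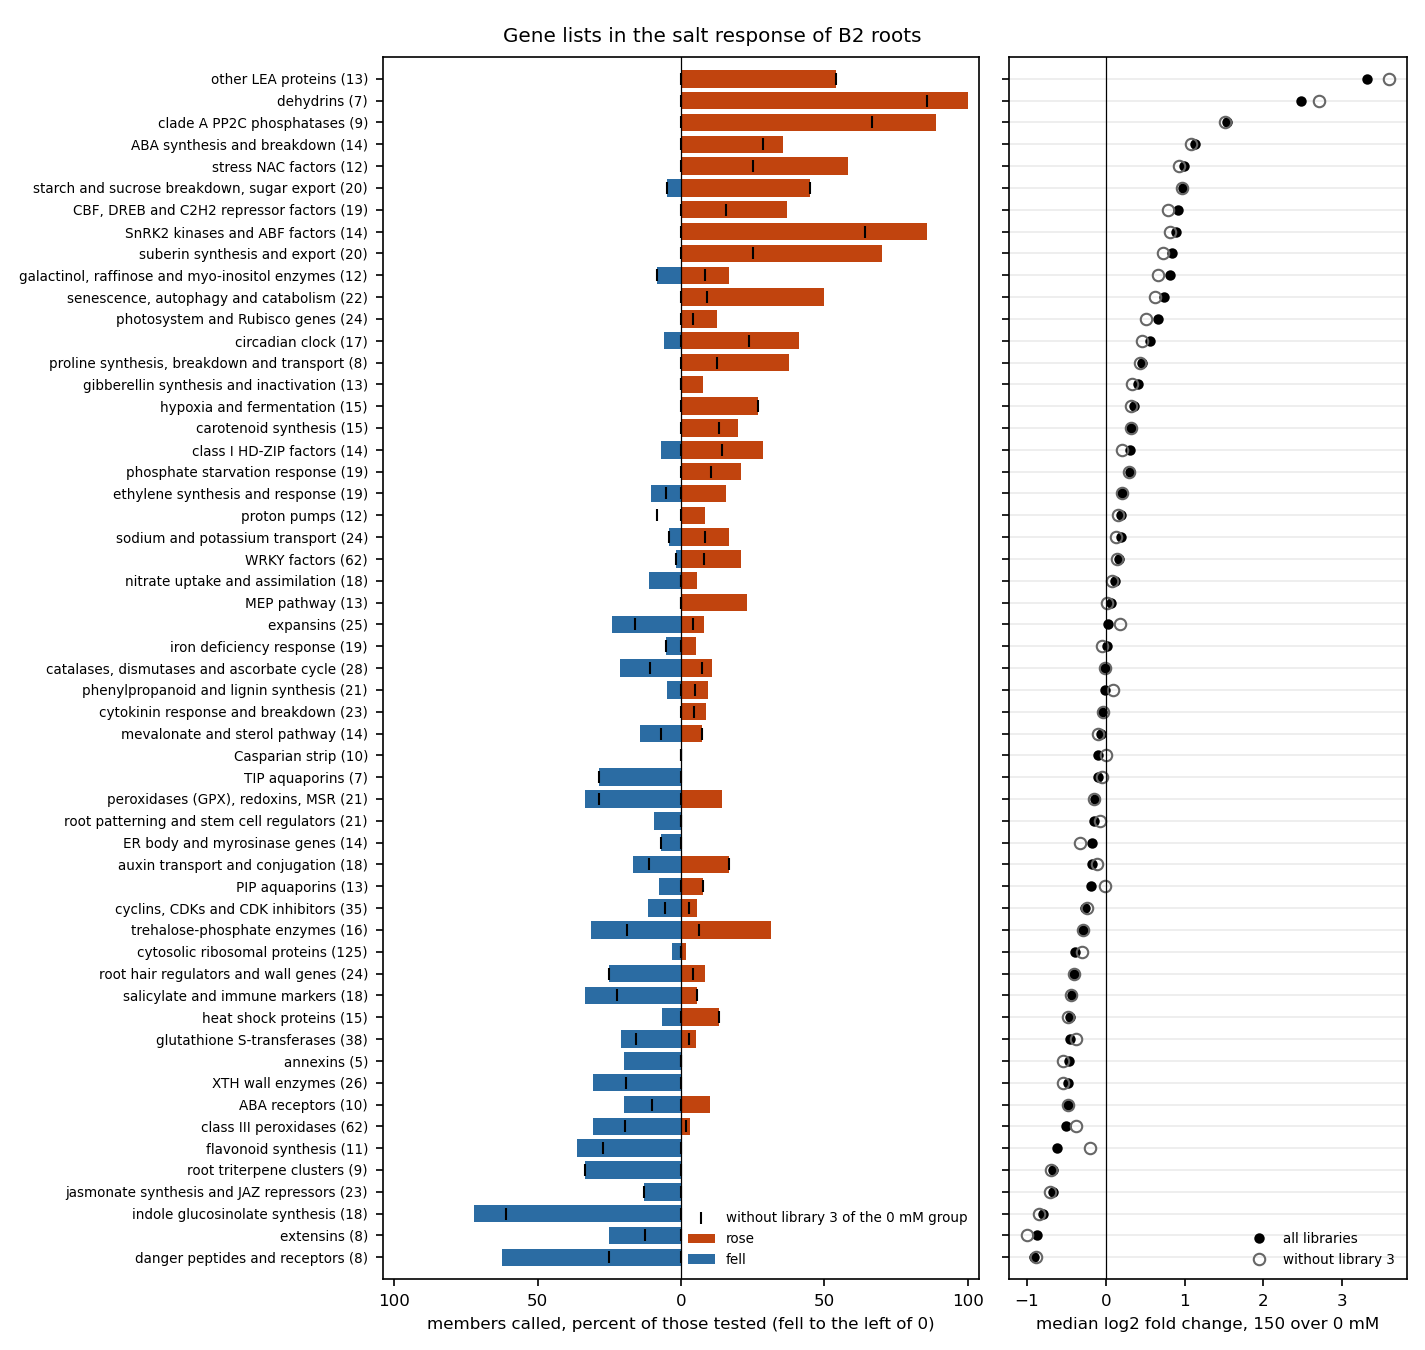
Share of the tested members of each gene list that rose (bars to the right of 0) or fell (bars to the left of 0) in B2 roots, with black ticks for the shares without 0 mM library 3, and the median log2 fold change of each list with all libraries (filled) and without that library (open); the number tested stands after each name. The dehydrins and the clade A PP2C genes have the highest shares that rose, and indole glucosinolate synthesis has the highest share that fell.

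Among wall genes, XTH and peroxidase genes fell more often than they rose. Of 26 XTH genes, which cut and rejoin xyloglucan, 8 fell and 0 rose, with a median of -0.472, and the count was 5 without 0 mM library 3, 4 without 0 mM library 1, 2 without 150 mM library 3 and 0 without 150 mM library 2. XTH15 had 31.2, 12.8 and 18.03 CPM in the 150 mM libraries, against 50.4, 46.9 and 73.8 CPM in the 0 mM libraries and lost its call without 150 mM library 2. Of 62 class III peroxidase genes, whose products act on wall polymers, 19 fell and 2 rose, with a median of -0.500, and the count that fell was 12 without 0 mM library 3, 10 without 0 mM library 1, 7 without 150 mM library 3 and 3 without 150 mM library 2. The count that rose was 1 without 0 mM library 3 or 150 mM library 3, 4 without 150 mM library 1 and 0 without 150 mM library 2. PER4 had 43.4, 21.9 and 38.3 CPM in the 150 mM libraries, against 112, 69.7 and 189.8 CPM in the 0 mM libraries (log2 fold change -1.84 ± 0.37). Of 25 expansin genes, 6 fell and 2 rose, with a median of 0.0235 and 13 positive and 12 negative log2 fold changes. The count that fell was 4 without 0 mM library 3, 2 without 0 mM library 1 and 1 without 150 mM library 2 or 150 mM library 3, and the count that rose was 1 without 0 mM library 3, 0 mM library 1, 150 mM library 2 or 150 mM library 3 and 6 without 150 mM library 1. DESeq2 called 5 that rose and 6 that fell. EXPA16 rose, with 2.32, 2.98 and 1.85 CPM in the 150 mM libraries, against 0.206, 0.330 and 0.0748 CPM in the 0 mM libraries, and EXPA18, an expansin of root hairs, fell, with 22.01, 15.2 and 18.9 CPM in the 150 mM libraries, against 38.7, 31.4 and 37.9 CPM in the 0 mM libraries. The 2 expansins thus moved in opposite directions with all libraries apart between groups.

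Of 24 root hair regulators and wall genes, 6 fell and 2 rose, with a median of -0.400, and the count that fell was 6 without 0 mM library 3, 3 without 0 mM library 1 and 2 without 150 mM library 2 or 150 mM library 3. The count that rose was 1 without 0 mM library 3 and 0 without 0 mM library 1, 0 mM library 2, 150 mM library 2 or 150 mM library 3. RHS18, a peroxidase of root hairs, had 14.3, 6.30 and 7.98 CPM in the 150 mM libraries, against 27.5, 29.5 and 22.4 CPM in the 0 mM libraries (log2 fold change -1.47 ± 0.27 (SE), edgeR adjusted p = 0.00475). Of 5 root hair markers, 2 fell (1 without 0 mM library 3 and 0 without 0 mM library 1, 150 mM library 2 or 150 mM library 3), and their part in the wall results was not tested. LRX1, 1 of these markers and a wall protein gene, had 43.2, 29.3 and 40.3 CPM in the 150 mM libraries, against 74.8, 58.5 and 60.6 CPM in the 0 mM libraries and lost its call without 0 mM library 1 or 3 or 150 mM library 2 or 3 (log2 -0.84 without 0 mM library 3). Of the 5 meristem and 4 root cap markers, 0 were called by edgeR. At an unadjusted p under 0.05, 1 meristem marker and 0 root cap markers were lower, and DESeq2 called 1 and 0. Of 6 endodermal markers, 1 rose and 0 fell, and the count that rose was 0 without 0 mM library 3, 150 mM library 2 or 150 mM library 3. Of 7 stele markers, 1 rose and 2 fell, and the count that fell was 0 without 0 mM library 3, 0 mM library 1, 0 mM library 2, 150 mM library 2 or 150 mM library 3 and 1 without 150 mM library 1.

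Suberin genes rose in most members. Suberin is the waxy polymer that seals endodermal walls. Of 20 genes, 14 rose and 0 fell, with a median of 0.843 and positive log2 fold changes in all 20. The count was 5 without 0 mM library 3, 6 without 0 mM library 1, 3 without 150 mM library 3 and 1 without 150 mM library 2. MYB107, an activator of suberin genes, had 19.4, 29.3 and 21.8 CPM in the 150 mM libraries, against 8.45, 13.7 and 8.98 CPM in the 0 mM libraries (log2 fold change 1.18 ± 0.23 (SE), edgeR adjusted p = 0.00556). GPAT7, which makes suberin monomers, had 65.8, 116 and 76.9 CPM in the 150 mM libraries, against 24.96, 30.8 and 30.2 CPM in the 0 mM libraries and KCS2, which lengthens their fatty acids, had 203, 347 and 297 CPM in the 150 mM libraries, against 116, 157 and 136 CPM in the 0 mM libraries; both lost their call without 150 mM library 2. ABCG6, an exporter of suberin monomers, had 261, 448 and 404 CPM in the 150 mM libraries, against 168, 170.4 and 207 CPM in the 0 mM libraries and lost its call without 0 mM library 1 or without 150 mM library 2 or 3. In these 4 genes each salt-treated library lay above each untreated one. Of 10 Casparian strip genes, 0 passed in either direction by edgeR, 1 was lower at an unadjusted p under 0.05 and 0 were called by DESeq2, with a median of -0.0973. CASP1, a scaffold protein of the strip, had 145, 165 and 153 CPM in the 150 mM libraries, against 135, 190.2 and 205 CPM in the 0 mM libraries, and did not pass, with groups that overlapped.

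Ion and water transport genes held both rises and falls. Of 24 sodium and potassium transport genes, 4 rose and 1 fell, against 9.61% and 6.63% of all genes, and the count that rose was 2 without 0 mM library 3, 150 mM library 2 or 150 mM library 3. DESeq2 called 6 of the 24 as higher and 2 as lower, and at an unadjusted p under 0.05 by edgeR 8 were higher and 2 lower. GORK, an outward potassium channel, had 70.9, 172 and 110.1 CPM in the 150 mM libraries, against 31.5, 42.1 and 29.7 CPM in the 0 mM libraries (log2 fold change 1.77 ± 0.29 (SE), edgeR adjusted p = 0.00292). CBL9, a calcium sensor that regulates potassium uptake, had 35.0, 46.6 and 32.7 CPM in the 150 mM libraries, against 19.9, 20.6 and 19.4 CPM in the 0 mM libraries. SOS1, the sodium exporter of the plasma membrane, had 53.4, 65.9 and 64.2 CPM in the 150 mM libraries, against 53.3, 46.2 and 37.9 CPM in the 0 mM libraries and did not pass (log2 fold change 0.42 ± 0.19 (SE), edgeR adjusted p = 0.143). HKT1, which takes sodium back from the xylem, had 9.52, 11.3 and 8.52 CPM in the 150 mM libraries, against 12.9, 13.03 and 12.4 CPM in the 0 mM libraries and did not pass either (log2 fold change -0.38 ± 0.21 (SE), edgeR adjusted p = 0.219). NHX1, the vacuolar sodium exchanger, had 116, 198 and 156 CPM in the 150 mM libraries, against 106, 103.5 and 107 CPM in the 0 mM libraries, with a call that was kept without 150 mM library 1 and lost without any other library (log2 0.35 to 0.74). Of 13 PIP aquaporin genes, 1 rose and 1 fell, where the count that rose was 1 without 0 mM library 3, 3 without 150 mM library 1 and 0 without 0 mM library 1, 0 mM library 2, 150 mM library 2 or 150 mM library 3 and the count that fell was 0 without 0 mM library 3, 150 mM library 2 or 150 mM library 3. Of 7 TIP genes, 2 fell, with 2 without 0 mM library 3 and 1 without 150 mM library 2. DELTA-TIP, a vacuolar water channel, had 76.5, 50.9 and 57.1 CPM in the 150 mM libraries, against 119, 139.7 and 155 CPM in the 0 mM libraries (log2 fold change -1.16 ± 0.19 (SE), edgeR adjusted p = 0.00268).

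The MEP pathway, which supplies the substrate of isoprene synthase in plastids, held 3 of 13 genes that rose and 0 that fell, with a median of 0.0687, against 9.61% and 6.63% of all genes, and 3.34% and 2.75% without 0 mM library 3. HDR, its last enzyme, had 172, 269 and 275 CPM in the 150 mM libraries, against 118, 143 and 106 CPM in the 0 mM libraries. HDS had 54.2, 62.1 and 64.5 CPM in the 150 mM libraries, against 51.1, 45.1 and 44.5 CPM in the 0 mM libraries and DXR had 42.9, 47.5 and 41.7 CPM in the 150 mM libraries, against 31.01, 37.1 and 29.9 CPM in the 0 mM libraries. Groups did not overlap in these 3 genes, and the count called was 0 without 0 mM library 3, 150 mM library 2 or 150 mM library 3 and 1 without 0 mM library 1. Their log2 fold changes without 0 mM library 3 were 0.86 for HDR, 0.32 for HDS and 0.36 for DXR.

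The response of B2 was set beside those of C4 and WT by a test of the difference of the log2 fold changes. By edgeR, 0 genes passed for B2 minus C4 (0% of those tested) and 0 for B2 minus WT (0%), while 776 and 967 had an unadjusted p under 0.05. By DESeq2 the counts were 16 and 1. LTI65 had 5.61 ± 0.98 in B2, 5.53 ± 0.97 in C4 and 6.22 ± 1.03 in WT, and the difference was 0.08 (95% interval -2.42 to 2.57) for B2 minus C4 and -0.61 (95% interval -3.27 to 2.06) for B2 minus WT. COR47 had differences of 0.08 (95% interval -0.92 to 1.08) from C4 and 0.20 (95% interval -0.87 to 1.26) from WT. GSH1 had differences of 0.06 (95% interval -0.50 to 0.62) from C4 and 0.20 (95% interval -0.40 to 0.80) from WT. The intervals of COR47 and GSH1 are narrow beside that of LTI65, and no interval here shows that the genotypes respond alike. The difference of P5CS1 was -0.08 (95% interval -1.08 to 0.91) from C4 and -0.75 (95% interval -1.80 to 0.30) from WT. The difference of MSRB7 was -0.62 (95% interval -2.32 to 1.08) from C4 and -1.47 (95% interval -3.26 to 0.33) from WT. The WT response rests on 2 salt-treated libraries, and library 2 of these held a B2 and C4 level of MRD1, with ANNAT3 at 76.0 CPM. Without that library, 95 genes passed for B2 minus WT by edgeR, 76 of them above 0 and 19 below, and 54 passed when 0 mM library 3 of B2 was left out as well. Without library 2 of C4 at 150 mM, 7 genes passed for B2 minus C4.

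Of the 2054 genes that rose in B2, 990 were also called as higher in C4 (48.2% of the B2 genes and 69.2% of the C4 genes) and 1187 in WT (57.8% and 59.8%). Of the 1417 that fell, 660 were also called in C4 (46.6% and 56.8%) and 771 in WT (54.4% and 49.1%). As a baseline, among the 21367 genes tested C4 had 1430 higher calls and 1162 lower calls. WT had 1984 higher calls and 1571 lower calls. Counts of genes called in B2 alone depend on these totals, which were smaller for C4. Called in B2 but in neither C4 nor WT were 719 that rose and 494 that fell, and 0 of them passed edgeR's test of a difference from C4 or from WT, as given above. ABCG20, a suberin transporter gene, was an example, with log2 fold changes of 1.04 ± 0.24 in B2, 0.25 ± 0.24 in C4 and 0.35 ± 0.26 in WT, and differences of 0.79 (95% interval 0.08 to 1.501) from C4 and 0.69 (95% interval -0.07 to 1.44) from WT. In B2 it had 105, 157 and 153 CPM in the 150 mM libraries, against 70.8, 66.5 and 64.5 CPM in the 0 mM libraries, and it lost its call without 0 mM library 3 or 150 mM library 2 or 3.

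**Figure D5:**
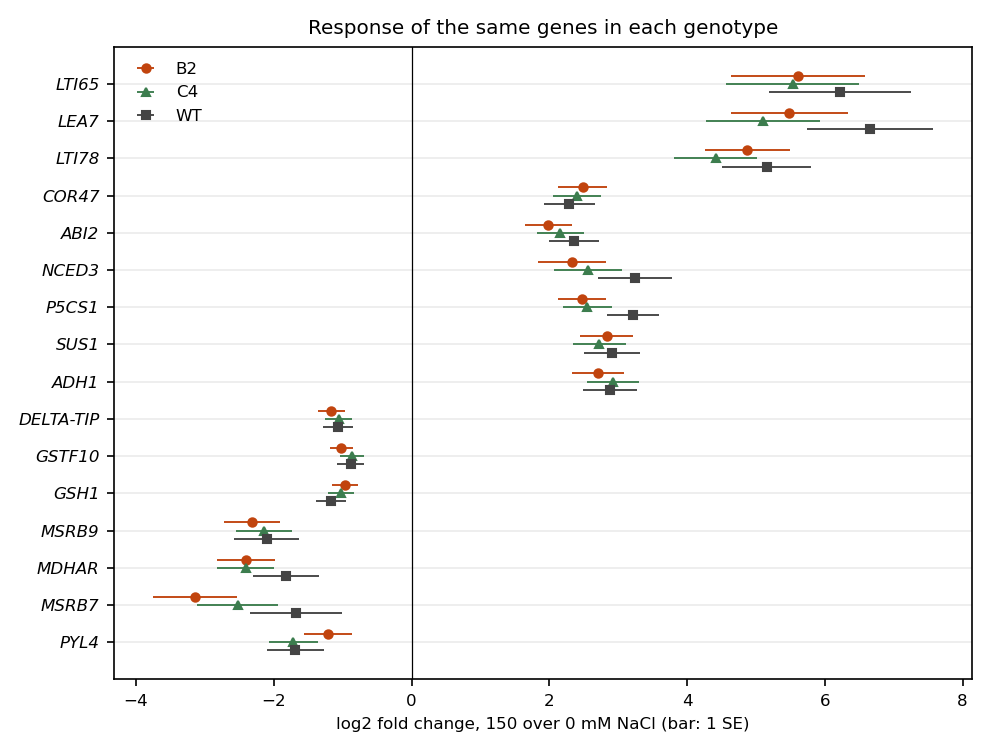
Log2 fold change of 150 mM over 0 mM NaCl for 16 genes in B2, C4 and WT roots, each with a bar of 1 SE on both sides. The bars of the 3 genotypes overlap or lie close in genes such as COR47 and GSTF10, and MSRB7 ranges from -3.15 in B2 to -1.68 in WT.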

How the data were processed

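The deposited values are raw read counts per gene, which featureCounts 2.0.3 produced per the file headers. Exons were summed over each gene, with strand setting 2, a mapping quality minimum of 10 and both reads of a pair counted. The submitters' processing notes name TAIR10, FastQC 0.12.1, fastp and STAR 2.7.11a. WT 0 mM columns 1 and 2 held equal counts in 24515 of 24532 genes, so they differed by less than sampling noise and count once here, leaving 17 libraries and leaving out the 17 unequal genes. All 17 libraries entered 1 robust quasi-likelihood fit (edgeR 4.0.16, R 4.3.3) with TMM scaling and the filter on low counts, which gives all groups 1 estimate of variation. The two-sided test used a threshold of 0.05. Each SE was taken as log2 fold change over the root of the F statistic, and intervals cover 95%. The procedure was tested on simulated data. Members and gene lists were chosen with earlier results of these data known. Named genes were the 12 largest changes per direction among genes called with and without 0 mM library 3, at 5 CPM or more and with groups apart, the 8 largest CPM differences per direction, the 4 members of lowest adjusted p per list, ANNAT3 and MRD1. PP2CA, HAI2, AHG1, SNRK2.7, SNRK2.5, ABF3, COR15A, SWEET2, STP1, ABCG6, CASP1, SOS1, HKT1, PYK10, RBCS1A, CAB1, CAB2 and PSBO1 were added after their values were seen. Alternatives were DESeq2 1.42.0 as test and as size factors, no filter on low counts, only the compared groups in the fit, the near-identical column counted, and each library left out.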

Additional observations from a re-analysis of the deposited data

How the results depend on the processing

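The number of genes called in B2 roots ran from 703 without 150 mM library 2 to 5728 without 150 mM library 1, and was 1438 without both libraries that went against their labels. It was 3470 with DESeq2 size factors, 3338 with no filter on low counts, 4717 by DESeq2's Wald test, 3843 with the near-identical WT column counted as a library and 2532 with only the B2 groups in the fit. For B2 minus WT the count was 1 by DESeq2, 0 to 95 when 1 library was left out and 54 without both libraries that went against their labels. For B2 minus C4 it was 16 by DESeq2 and 0 to 7 when 1 library was left out. Of 241 genes taken by the naming rule, 200 were called, and 0 changed sign under any alternative. Of those 200, 153, 172 and 145 were called without 0 mM libraries 1, 2 and 3, and 197, 94 and 128 without 150 mM libraries 1, 2 and 3. All 200 were called by DESeq2's Wald test and 199 with DESeq2 size factors. The naming rule favoured low adjusted p, large changes and groups apart, and in part required a call without 0 mM library 3. These counts over named genes are therefore partly fixed by that choice. The causes were not tested. No paired analysis was possible because the labels give the groups no replicate numbers in common. With 3 libraries a group, genes that differ less than the spread between libraries are not detectable.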

Other observations

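Genes of the circadian clock and of senescence rose in part in B2 roots. Of 17 clock genes, 7 rose and 1 fell, with a median log2 fold change of 0.558, against 9.61% that rose and 6.63% that fell over all genes, and the count that rose was 4 without 0 mM library 3 or 150 mM library 3 and 2 without 150 mM library 2. TOC1, an evening gene of the clock, had 67.6, 104.3 and 86.7 CPM in the 150 mM libraries, against 48.5, 51.7 and 49.1 CPM in the 0 mM libraries (log2 fold change 0.79 ± 0.15 (SE), edgeR adjusted p = 0.00456). FKF1, a blue-light photoreceptor of the clock, had 1.75, 6.41 and 3.98 CPM in the 150 mM libraries, against 0.899, 0.635 and 0.511 CPM in the 0 mM libraries (log2 fold change 2.56 ± 0.37). CCA1, a morning gene, had 45.7, 87.9 and 64.9 CPM in the 150 mM libraries, against 25.4, 34.7 and 13.5 CPM in the 0 mM libraries, a rise that was not called without 150 mM library 2. The hour of root collection is not stated in the labels.

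Of 22 genes of senescence, autophagy and catabolism, 11 rose and 0 fell, with a median of 0.742, against the same shares of all genes, and the count was 2 without 0 mM library 3 or 150 mM library 3, 6 without 0 mM library 2, 4 without 0 mM library 1 and 1 without 150 mM library 2. SAG29, a sugar transporter gene of senescing tissue, had 3.34, 6.04 and 2.51 CPM in the 150 mM libraries, against 0.630, 0.354 and 0.574 CPM in the 0 mM libraries (log2 fold change 2.93 ± 0.58 (SE), edgeR adjusted p = 0.00645). Of 125 genes matched by product name as cytosolic ribosomal proteins, 2 rose and 4 fell, whereas 113 had a negative log2 fold change, with a median of -0.385. The match by name may include genes of other kinds, HLL, AT5G15260 and AT3G01170 being among its 4 members of lowest adjusted p. DESeq2 called 2 as higher and 22 as lower, and at an unadjusted p under 0.05 by edgeR 3 were higher and 48 lower. Without 150 mM library 1, 72 of the 125 fell, where 2831 of all 21347 genes tested fell. Without 0 mM library 1 or 3 or 150 mM library 2 or 3, 0 of the 125 fell. The 24 photosystem, light-harvesting and Rubisco genes, of which 3 rose (1 without 0 mM library 3, 150 mM library 2 or 150 mM library 3), together held 527, 778 and 531 CPM in the 150 mM libraries, against 431, 399 and 278.5 CPM in the 0 mM libraries. The 8 shoot markers held 177, 288 and 199 CPM in the 150 mM libraries, against 158, 138 and 128 CPM in the 0 mM libraries. Of these 8 markers, 7 had a positive log2 fold change and 1 a negative one, and edgeR called 0. CAB1 held 34.6, 57.4 and 36.8 CPM at 150 mM, against 29.4, 19.3 and 7.82 CPM at 0 mM. PSBO1 held 47.9, 83.4 and 59.3 CPM at 150 mM, against 41.1, 39.9 and 29.5 CPM at 0 mM. CAB2, with a low level, held 0.175, 0.335 and 0.284 CPM at 150 mM, against 0.0257, 0.122 and 0.0249 CPM at 0 mM. The part of shoot tissue in the result was not tested.

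DESeq2 called a difference of the B2 and C4 responses in 16 genes, 3 above 0 and 13 below. BCS1 had a log2 fold change of -0.82 ± 0.25 in B2 roots and of 1.16 ± 0.25 in C4 roots, a DESeq2 difference of -1.98 (DESeq2 adjusted p = 0.000338). WRKY40, a wound and defence regulator, had -0.96 ± 0.42 in B2 roots and 1.65 ± 0.43 in C4 roots, a DESeq2 difference of -2.60 (DESeq2 adjusted p = 0.00802). In B2 roots WRKY40 had 7.17, 3.52 and 8.61 CPM in the 150 mM libraries, against 14.1, 14.9 and 8.51 CPM in the 0 mM libraries. These groups overlapped, and the fall of WRKY40 in B2 roots did not pass by edgeR. Genes of this paragraph were not required to keep a call without each library in turn. GATL10 had 7.66, 8.51 and 6.93 CPM in the 150 mM libraries, against 13.95, 14.3 and 14.5 CPM in the 0 mM libraries, with a DESeq2 difference from C4 of -0.73 (DESeq2 adjusted p = 0.00493). RCP1 was the 1 gene called by DESeq2 for B2 minus WT, with log2 fold changes of -0.63 ± 0.20 in B2 roots and 0.92 ± 0.22 in WT roots (DESeq2 adjusted p = 0.0198). By edgeR the adjusted p of these differences lay between 0.786 and 0.961, and these genes were named after their values were seen.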
